A study of Aspergillus niger with 24 samples.

Results

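Hyphae of Aspergillus niger CICC2629 that carried a lipase transgene, sampled on day 4 of culture, were compared with wild-type (WT) hyphae of the same strain background sampled on day 3. The comparison covered 6 of the 24 RNA-seq libraries of the series, 3 from each group, and every gene of the deposited table. The transgenic strain expressed the lipase TLL. Both strains grew at 28 °C on potato dextrose agar, a medium of potato extract and glucose, and total RNA of hyphae was sequenced. The promoter of the transgene, its copy number and the number of clones are not stated in the labels or series text. The other 6 groups of 3 libraries are WT on days 1, 2 and 4 and the TLL strain on days 1, 2 and 3. Days follow the sample labels, whereas the series text counts the time points in hours from 0.

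The pair was chosen from measured expression: in these data both groups had been seen to resemble each other in overall state, so that a likeness between them is no finding. Strain and day change together in this pair. A gene that differs can therefore differ by strain, by day or by both, and these cannot be told apart from the 6 libraries. The labels do not say whether replicates were separate cultures. The p-values thus reflect spread between replicate libraries alone, which may be technical. That spread was estimated over all 24 libraries, not over the 6 compared. The RNA is from whole mycelium, in which fewer cells of a kind and less RNA per cell cannot be told apart.

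A. niger is a filamentous fungus used in industry to produce and secrete enzymes. A colony on agar is a mixture of ages: hyphae at the edge extend and take up nutrients, whereas older hyphae behind the edge become vacuolated and grow aerial structures that bear spores. Secreted proteins, lipases included, enter the endoplasmic reticulum, where they are folded and glycosylated, and leave by vesicles that fuse mainly at growing tips. Genes that act in one process, such as the synthesis of a secondary metabolite, often lie side by side in fungal genomes. The table names genes only by NRRL3 identifiers, and none of its 11846 identifiers matched the 14404 genes of the RefSeq table of the species (assembly ASM285v2). Genes are therefore given here by identifier, with no name and no role.

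Levels are in TPM (transcript copies scaled to a common total per library), and are corrected for transcript length. Read numbers were not used here and the depth of each library is unknown. Of all genes, 659 were listed at 0 in every library and 9558 passed the filter of at least 1 TPM in at least 3 of the 24 libraries. At least 1 TPM was reached by 8792 to 8935 genes in the WT day 3 libraries and by 8768 to 8783 in the TLL day 4 libraries. Pearson's correlation of log2(TPM + 1) between replicates was 0.987 to 0.988 within WT day 3 and 0.987 to 0.991 within TLL day 4. The median SD of a gene between replicates was 0.13 on the log2(TPM + 1) scale in both groups. It was 0.33 in WT day 1 and 0.29 in TLL day 1, whose libraries stand apart from one another and enter the shared estimate of spread. In the deposited table the 6 compared columns stand at positions 1 to 6, ahead of the other 18. No source calls this a batch, and the part of the order in the likeness of both groups was not tested.

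By the number of genes that differ, the likeness held only in part. Each difference was tested by limma, fitted to log2(TPM + 1) of the 24 libraries together, and a gene was called at a Benjamini-Hochberg adjusted p under 0.05. The pair differed at 4593 of 9558 genes (48.1%), which placed it 12th among the 28 pairs of groups counted from the fewest calls. It was 9th when only calls of at least 2-fold were counted, 1854 in all. TLL day 4 differed from TLL day 3 at 47.4% of genes, from TLL day 2 at 53.9%, from WT day 4 at 54.1%, from WT day 2 at 56.4%, from WT day 1 at 65.5% and from TLL day 1 at 65.9%. WT day 3 differed from TLL day 3 at 47.1%, from WT day 4 at 53.4%, from WT day 2 at 53.6%, from TLL day 2 at 57.1%, from WT day 1 at 60.6% and from TLL day 1 at 62.2%. Each of the compared groups was thus about as far from the other as from TLL day 3. The mean Pearson correlation between their libraries was 0.910, against 0.919 for TLL day 4 with TLL day 3 and 0.901 for WT day 3 with TLL day 3.

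In TLL day 4, 2982 genes (31.2% of those tested) were higher than in WT day 3 and 1611 (16.9%) were lower. Changes of at least 2-fold were called upward in 1104 genes (11.6%) and downward in 750 (7.85%). At larger sizes the balance turned: 135 genes (1.41%) were at least 4-fold higher and 230 (2.41%) at least 4-fold lower. At least 8-fold, 21 genes (0.22%) were higher and 89 (0.931%) were lower. The libraries of both groups did not overlap at 6636 genes, 69.4% of those tested. Among called genes this held for 2936 (98.5%) of those that were higher and 1570 (97.5%) of those that were lower.

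**Figure D1:**
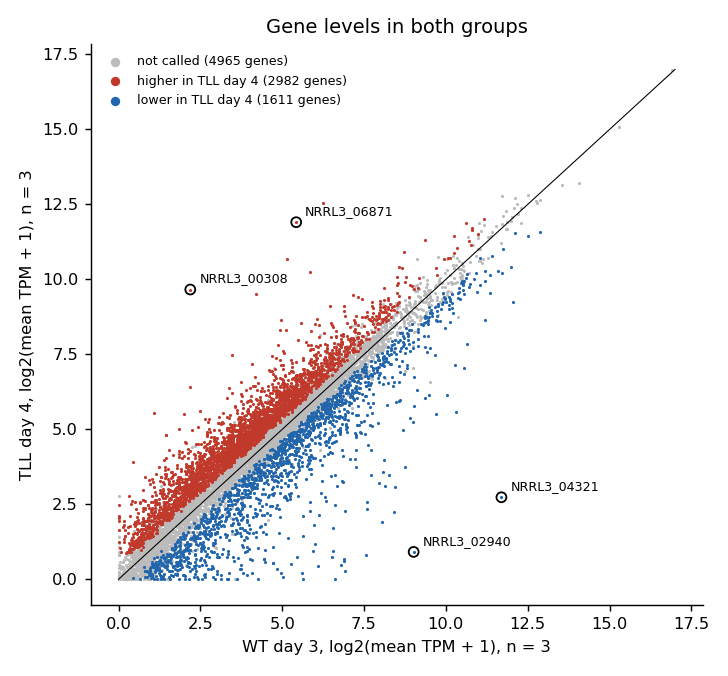
Mean level of each of the 9558 genes tested in WT day 3 (x axis) and TLL day 4 (y axis), both as log2(mean TPM + 1) over 3 libraries. Red points are the 2982 genes called higher in TLL day 4, blue points the 1611 called lower and grey points the rest. The points far below the diagonal, genes high in WT day 3 and near 0 in TLL day 4, have few counterparts above it.

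The excess of genes that were higher depended on how the libraries were scaled, whereas the excess of 8-fold lower genes did not. With TPM as deposited, the log2 change had a median of 0.19 over the tested genes, and 64.9% of called genes were higher. After scaling by the median of ratios the median was -0.01, with 2181 genes higher and 2317 lower, so that 48.5% of calls were higher. Quantile normalization gave a median of 0.08 and 55.6% of calls higher, 2618 against 2087. The 2-fold counts turned under both, to 699 higher and 1059 lower by the median of ratios and to 895 higher and 949 lower by quantiles. The 8-fold counts were 16 higher and 102 lower by the median of ratios and 21 higher and 103 lower by quantiles.

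Genes of different abundance were not shared out evenly. Of 3319 genes with a mean under 10 TPM over the 6 libraries, 910 (27.4%) were higher in TLL day 4 and 536 (16.1%) were lower. Of 4819 genes between 10 and 100 TPM, 1736 (36.0%) were higher and 770 (16.0%) lower. Of 1288 genes between 100 and 1000 TPM, 318 (24.7%) were higher and 270 (21.0%) lower. Among the 132 most abundant genes, at 1000 TPM or more, the order turned, with 18 (13.6%) higher and 35 (26.5%) lower. More of these 132 were lower than higher under the other scalings as well: 9 higher and 48 lower by the median of ratios, 22 and 29 by quantiles. The other classes depended on the scaling. By the median of ratios 218 were higher and 401 lower from 100 to 1000 TPM, 1264 and 1174 from 10 to 100 TPM, and 689 and 688 under 10 TPM. Quantile normalization gave 327 and 312, 1420 and 1134, and 849 and 612 in the same order.

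**Figure D2:**
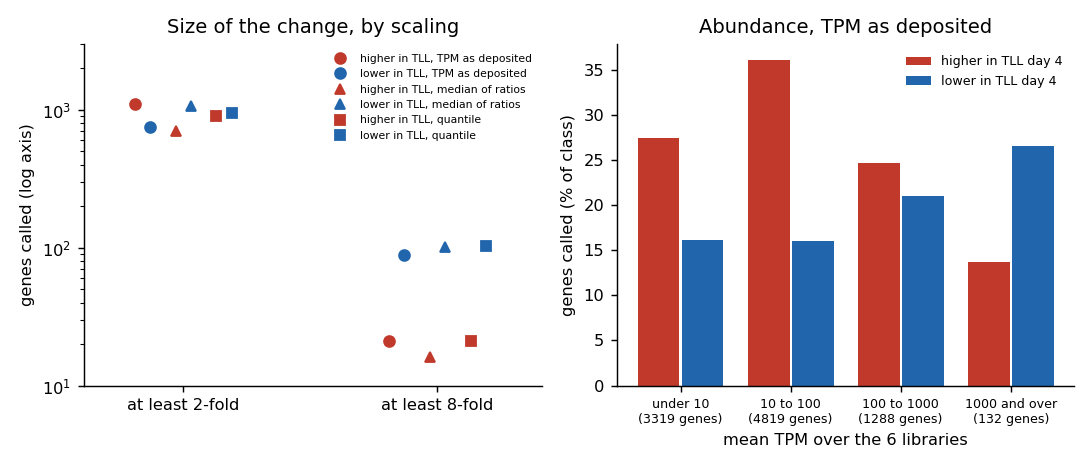
Left, the number of genes called at least 2-fold and at least 8-fold higher (red) or lower (blue) in TLL day 4 than in WT day 3 under 3 scalings, on a log axis. Right, with TPM as deposited, the share of genes called in each direction by abundance class, in percent of the class: lower genes outnumber higher ones in the class of 1000 TPM and over, 26.5% against 13.6%.

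TPM has a common total per library. Genes not called held 64.7% ± 0.478 (SD, n = 3) of it in WT day 3 and 65.5% ± 1.04 in TLL day 4. The share gained by the genes called higher therefore had to be near the share lost by those called lower. Genes called higher in TLL day 4 held 11.2% ± 0.229 (SD, n = 3) of all TPM in WT day 3 and 23.3% ± 0.546 in TLL day 4. Genes called lower held 24.0% ± 0.256 in WT day 3 and 11.2% ± 0.797 in TLL day 4. These shares describe the choice of genes and are no test. In TLL day 3, which the calls did not compare, the same sets held 20.7% ± 0.567 and 19.3% ± 0.114, and in WT day 4 they held 19.2% ± 0.983 and 18.3% ± 0.550. The most abundant gene of all 6 libraries was NRRL3_01765, which alone took 11.5% to 12.9% of TPM in WT day 3 and 12.7% to 13.0% in TLL day 4. Its level was 128907, 126073 and 114969 TPM in WT day 3 against 128919, 126567 and 130485 in TLL day 4. The groups overlapped, and the log2 change of 0.06 (SE 0.50, adjusted p = 0.929 by limma) did not pass the test. Of the 10, 100 and 500 most abundant genes of each group, 7, 73 and 391 were shared.

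The gene with the largest increase was NRRL3_00308. It was listed at 787, 810 and 831 TPM in TLL day 4, against 0, 0 and 10.7 TPM in WT day 3. All TLL day 4 libraries lay far above all WT day 3 libraries, of which only replicate 3 gave a level above 0. The log2 change was 8.48 (SE 0.91, adjusted p = 4.58e-07, limma). It was 9.66 without WT day 3 replicate 3 and 7.89 without replicate 1 or replicate 2 of that group. In the TLL strain the gene was at 258 ± 13.9 TPM on day 3 and 4.50 ± 7.80 TPM on day 2, so that it was above the WT day 3 libraries on day 3 as well.

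NRRL3_06871 was both the next largest increase and the largest among abundant genes. Its levels were 3942, 3881 and 3697 TPM in TLL day 4 against 47.3, 37.2 and 41.7 in WT day 3. The groups lay far apart, with a log2 change of 6.49 (SE 0.49, adjusted p = 4.55e-09, limma). Its mean in the other groups ran from 31.0 ± 2.64 TPM in TLL day 2 to 301 ± 101 TPM in TLL day 3. NRRL3_11759 was the next among the abundant genes, at 6399, 5836 and 5781 TPM in TLL day 4 against 73.2, 82.8 and 69.0 in WT day 3, a log2 change of 6.31 (SE 0.38, adjusted p = 1.12e-10, limma). For this gene WT day 3 was the unusual group of the later days. In WT it stood at 1517 ± 246 TPM on day 2 and 975 ± 83.9 TPM on day 4, and TLL day 3 was at 5228 ± 496 TPM.

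The gene with the largest decrease, NRRL3_04321, was also the largest among abundant genes. It was listed at 3286, 3550 and 3126 TPM in WT day 3 against 8.88, 4.41 and 3.69 in TLL day 4. The groups were separated by a log2 change of -9.04 (SE 0.39, adjusted p = 7.5e-13, limma). No other group had a mean above 0.837 TPM, so that this transcript was abundant in WT day 3 and in no other group sampled. NRRL3_02940 showed the same pattern at a lower level, with 518, 591 and 441 TPM in WT day 3 against 0.67, 1.23 and 0.75 in TLL day 4. Its log2 change was -8.10 (SE 0.28, adjusted p = 2.84e-14, limma), and its highest mean in any other group was 0.77 TPM, in WT day 1. NRRL3_01181, the other abundant gene named, was high in both groups. It fell from 4202, 4374 and 4223 TPM in WT day 3 to 574, 618 and 642 TPM in TLL day 4, a log2 change of -2.80 (SE 0.71, adjusted p = 0.00311, limma). Its levels on the other days from day 2 on ranged from 1218 ± 97.8 TPM in WT day 4 to 2161 ± 174 TPM in WT day 2, between the compared groups. The day 1 libraries were far apart, at 3919, 433 and 361 TPM in WT and 247, 465 and 2944 TPM in the TLL strain.

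**Figure D3:**
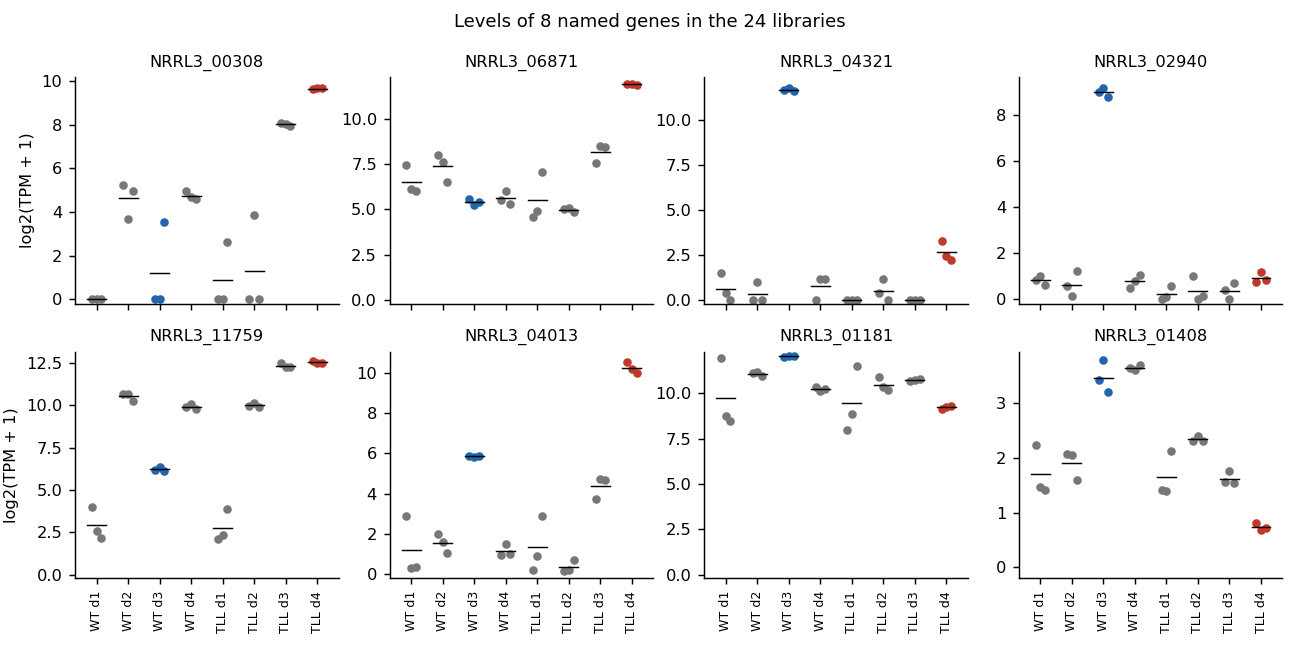
Level of 8 named genes in all 24 libraries, as log2(TPM + 1): points are libraries, short lines are means of 3 libraries, WT day 3 is blue, TLL day 4 is red and the other groups are grey. NRRL3_04321 and NRRL3_02940 are high in WT day 3 and low in every other group, whereas NRRL3_00308 is high in TLL day 3 as well as TLL day 4. NRRL3_11759 is lower in WT day 3 than in every other group from day 2 on.

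Genes present in one group and near absent in the other lay almost all on one side. At 10 TPM or more in every WT day 3 library and under 1 TPM in every TLL day 4 library there were 26 genes (0.272% of those tested). The reverse pattern was met by 1 gene (0.0105%). These counts compare TPM limits directly and carry no test. The 26 genes had WT day 3 means of 10.6 to 119 TPM with a median of 26.5 TPM, and 2 of them were listed at 0 in all TLL day 4 libraries. In 23 of the 26, WT day 3 was above the mean of every other group, and 16 stayed under 10 TPM in all 18 other libraries. The rule that chose the 26 favours a peak in WT day 3. That group had the highest mean for 11.5% of all tested genes and for 38.3% of those called lower in TLL day 4.

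Of the 26 genes, 5 stayed under 1 TPM in all 18 other libraries. They were identified after their values were seen and are NRRL3_04320, NRRL3_05194, NRRL3_06290, NRRL3_08865 and NRRL3_11480. NRRL3_11480 was listed at 117, 65.6 and 175 TPM in WT day 3 against 0.25, 0.37 and 0 in TLL day 4. It varied more between the WT day 3 libraries than NRRL3_04320, which was at 122, 123 and 107 TPM there and at 0.89, 0.75 and 0.12 TPM in TLL day 4. The other 3 had WT day 3 means of 12.9 ± 2.15, 15.9 ± 3.36 and 14.1 ± 1.38 TPM in the order named above. The single gene on the other side was NRRL3_00307, at 16.4, 13.0 and 12.4 TPM in TLL day 4 against 0.65, 0.06 and 0.36 in WT day 3. TLL day 3, at 6.33 ± 0.570 TPM, held the next highest mean of this gene.

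Several of these genes had consecutive identifiers. NRRL3_04320 stands next to NRRL3_04321 and NRRL3_00307 next to NRRL3_00308. NRRL3_01180, next to NRRL3_01181, was at 119, 103 and 133 TPM in WT day 3 against 0.49, 0.61 and 0.48 in TLL day 4. Whether identifier order follows chromosome position is not given in the sources used here. Runs of at least 3 consecutive identifiers changed at least 4-fold in one direction numbered 7 among the genes that were lower, with 23 of 230 genes (10%), and 2 among those that were higher, with 6 of 135 (4.44%). TLL day 3 against WT day 4 gave no such run, from 13 genes at least 4-fold higher (0.136%) and 23 at least 4-fold lower (0.241%). The strains on day 1 gave 1 run of 3 genes from 37 genes at least 4-fold lower (0.387%), which is 8.11% of them. On day 2 there was no run from 8 genes at least 4-fold higher (0.0837%) and 13 lower (0.136%). The runs thus come from lists of very different length, and the share in runs was not tested between comparisons.

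The longest run held 5 genes, NRRL3_06288 to NRRL3_06292. Their WT day 3 means ran from 3.93 to 30.1 TPM and their TLL day 4 means from 0.0533 to 1.46 TPM. Log2 changes lay between -4.76 and -2.22, with adjusted p of 9.96e-08 or less by limma, and WT day 3 was the highest of the 8 groups for all 5. Among the runs that were lower, the one with the highest WT day 3 means was NRRL3_11480 to NRRL3_11482, with means of 119 to 343 TPM in WT day 3 and 0.207 to 3.71 TPM in TLL day 4. Its log2 changes were -6.54 to -6.03, and WT day 3 was again the highest group for each of the 3. Of the runs that were higher, NRRL3_00307 to NRRL3_00309 had log2 changes of 2.25 to 8.48 and their highest level in TLL day 4. NRRL3_11763 to NRRL3_11765 had log2 changes of 2.53 to 4.45, but for 2 of these 3 genes WT day 2 was higher still. The runs were chosen by their changes, so their values are a description.

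**Figure D4:**
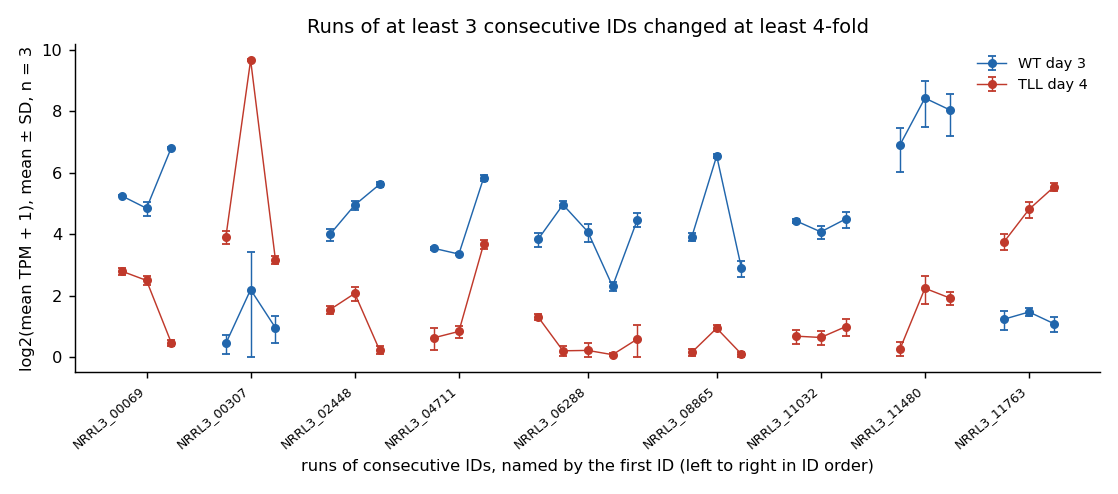
Mean level ± SD over 3 libraries, as log2(mean TPM + 1), of the genes in the 9 runs of at least 3 consecutive identifiers that changed at least 4-fold, in WT day 3 (blue) and TLL day 4 (red). In 7 runs WT day 3 is higher and in 2 TLL day 4 is higher; only the order of identifiers is shown, not distance.

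The other 18 libraries show which of the compared groups departs from the rest. A group was counted as above or below when its 3 libraries all lay outside the range of those 18. Of the 1104 genes at least 2-fold higher in TLL day 4, 443 (40.1%) were above that range in TLL day 4 and within it in WT day 3. A further 179 (16.2%) were below it in WT day 3 and within it in TLL day 4, and 410 (37.1%) were within it in both. Of the 750 genes at least 2-fold lower, 257 (34.3%) were above the range in WT day 3 alone, 135 (18%) were below it in TLL day 4 alone, and 302 (40.3%) were within it in both. Genes on opposite sides of the range numbered 13 and 16 in these sets. The shares depend on the day 1 libraries, which widen the range. Against the 12 other libraries of days 2 to 4, 420 of the 1104 were above the range in TLL day 4 alone, 338 (30.6%) below it in WT day 3 alone, 130 (11.8%) within it in both and 82 on opposite sides. Of the 750, 294 (39.2%) were above it in WT day 3 alone, 195 (26%) below it in TLL day 4 alone, 100 (13.3%) within it in both and 62 on opposite sides. Both sets were chosen for a difference between the compared groups, which favours a place outside the range. Of the 4965 genes not called, 202 (4.07%) were above the range of the 18 libraries in TLL day 4 alone and 102 (2.05%) in WT day 3 alone. Below it were 145 (2.92%) in TLL day 4 alone and 156 (3.14%) in WT day 3 alone. Over all tested genes, TLL day 4 alone was outside the range of the 18 libraries at 1530 and WT day 3 alone at 1125. Both stood above it at 385 genes and below it at 741, which describes the likeness by which the pair was chosen.

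Among all called genes, TLL day 4 had the highest group mean for 1476 (49.5%) of those it was higher in, whereas it was the highest group for 24.3% of all tested genes. WT day 3 had the highest group mean for 617 (38.3%) of the genes that were lower in TLL day 4, against 11.5% of all tested genes. Both shares are raised by the choice of genes, since a gene called higher in TLL day 4 cannot peak in WT day 3.

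The crossed pair, TLL day 3 against WT day 4, holds the same strains with the days exchanged and shares no library with the pair above. It differed at 1129 genes (11.8%), of which 627 (6.56%) were higher in the TLL strain and 502 (5.25%) lower. A difference that goes with strain alone would have the same sign in both pairs, and one that goes with day alone would have opposite signs. Called in both pairs were 600 genes, which are 53.1% of the crossed list and 13.1% of the 4593. These shares are near those over all tested genes, of which 48.1% were called in the main pair and 11.8% in the crossed pair. Among the 600 the signs were the same in 279 and opposite in 321. Of the genes higher in TLL day 4 than in WT day 3, 129 (4.33%) were also higher in the TLL strain in the crossed pair and 140 (4.69%) were lower. Of those lower in TLL day 4, 150 (9.31%) were also lower in the crossed pair and 181 (11.2%) were higher. Across the 9558 genes, which are not independent, the log2 changes of both pairs had a Pearson correlation of 0.08 and a Spearman correlation of 0.06.

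These counts moved with the libraries and the scaling used. Without TLL day 3 replicate 3 the crossed pair had 551 calls, with 140 genes of the same and 168 of opposite sign, and without TLL day 3 replicate 2 it had 569, 146 and 169. Without WT day 4 replicate 1 the counts were 714, 177 and 210, and without WT day 4 replicate 2 they were 643, 151 and 209. Leaving out the day 1 libraries raised them to 2530, 807 and 767, which turned the balance of signs. By the median of ratios 323 genes had the same sign and 399 the opposite. The difference between both pairs, tested as an interaction by limma, passed at 3240 genes (33.9%).

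**Figure D5:**
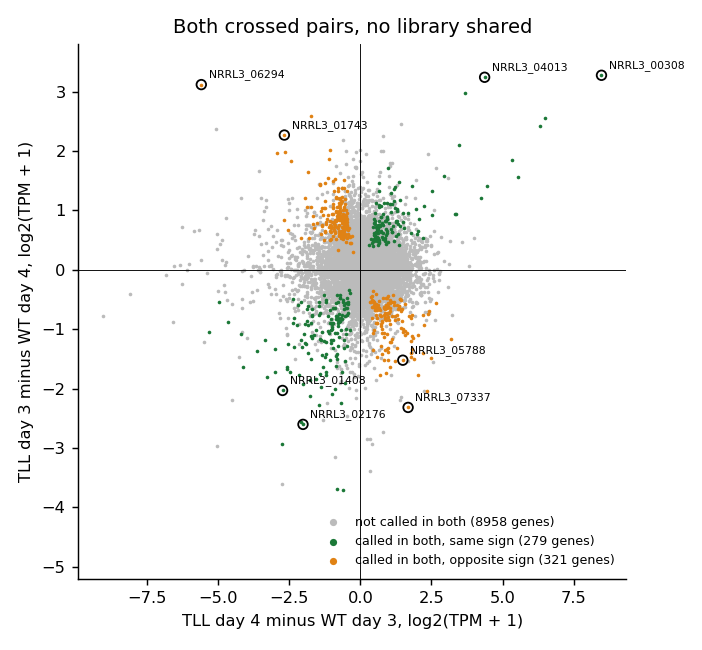
Log2(TPM + 1) change of each tested gene in TLL day 4 minus WT day 3 (x axis) and in TLL day 3 minus WT day 4 (y axis), each from 3 against 3 libraries with none shared. Green points are the 279 genes called in both with the same sign and orange points the 321 with opposite signs. Circles mark only the named genes that were chosen among those called in both pairs. Most large changes on the x axis lie near 0 on the y axis.

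NRRL3_00308 and NRRL3_04013 had the largest increases shared by both pairs. In the crossed pair NRRL3_00308 was at 272, 258 and 244 TPM in TLL day 3 against 29.8, 24.7 and 23.4 in WT day 4, a log2 change of 3.27 (adjusted p = 0.0244, limma). This call was lost when any one of these 6 libraries was left out (adjusted p = 0.0574 to 0.0772) and with a pseudocount of 0.1 TPM (adjusted p = 0.25), with log2 changes of 3.20 to 3.37. Its SE of 0.91 is shared by all groups. Some of them held replicates at 0 beside others above 0, such as TLL day 2 at 0, 13.5 and 0 TPM. On day 2 the log2 change was -3.35 (adjusted p = 0.026, limma). That call was lost without WT day 2 replicate 1 or 3 or TLL day 2 replicate 1 or 3 (adjusted p = 0.0713 to 0.147), where the log2 change was -3.18 to -2.71. NRRL3_04013 was at 1485, 1162 and 1007 TPM in TLL day 4 against 57.6, 55.6 and 58.5 in WT day 3, a log2 change of 4.37 (SE 0.59, adjusted p = 7.09e-06, limma). In the crossed pair it was far lower but still separated, at 12.2, 26.0 and 24.4 TPM in TLL day 3 against 0.94, 1.79 and 0.98 in WT day 4, with a log2 change of 3.24 (adjusted p = 0.00123, limma).

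NRRL3_01408 and NRRL3_02176 had the largest shared decreases. NRRL3_01408 was at 0.76, 0.60 and 0.64 TPM in TLL day 4 against 9.70, 12.8 and 8.22 in WT day 3, a log2 change of -2.74 (SE 0.22, adjusted p = 9.99e-09, limma). In the crossed pair it was at 1.94, 2.41 and 1.91 TPM in TLL day 3 against 11.6, 11.2 and 12.0 in WT day 4, with a log2 change of -2.03 (adjusted p = 7.21e-06). WT libraries of days 3 and 4 were thus all above TLL libraries of the same days for this gene. NRRL3_02176 was at 3.42, 3.50 and 5.01 TPM in TLL day 4 against 22.7, 19.7 and 15.1 in WT day 3, a log2 change of -2.02 (SE 0.27, adjusted p = 5.87e-06, limma). Its crossed values were 10.6, 10.1 and 8.70 TPM in TLL day 3 against 55.6, 71.2 and 67.4 in WT day 4, a log2 change of -2.60 (adjusted p = 4.23e-06). On days 1 and 2 neither gene passed the test between strains. The log2 change of NRRL3_01408 was -0.06 on day 1 (adjusted p = 0.91, limma) and 0.43 on day 2 (adjusted p = 0.212). For NRRL3_02176 it was -0.45 on day 1 (adjusted p = 0.336, limma) and 0.06 on day 2 (adjusted p = 0.918).

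Between days 3 and 4 the named genes with opposite signs moved in the same direction in both strains. Their choice by opposite signs favours this order. NRRL3_06294, a near neighbour of the longest run by identifier, was at 336, 337 and 362 TPM in WT day 3 against 2.87, 5.23 and 14.3 in TLL day 4, a log2 change of -5.59 (SE 0.87, adjusted p = 3.5e-05, limma). In TLL day 3 it was at 169, 163 and 166 TPM and in WT day 4 at 21.1, 14.2 and 20.3 TPM, a log2 change of 3.12 (adjusted p = 0.0244, limma). The crossed call was lost without WT day 4 replicate 1 or 2 or any one TLL day 3 library (adjusted p = 0.0556 to 0.0899), at log2 changes of 2.94 to 3.22. Both day 3 groups were thus above both day 4 groups. NRRL3_01743 had a like order of groups. On day 3 it was at 20.1, 16.9 and 26.1 TPM in WT and at 25.7, 42.6 and 35.2 TPM in the TLL strain. On day 4 it was at 5.49, 7.87 and 5.56 TPM in WT and at 1.64, 1.80 and 4.33 TPM in the TLL strain, so that day 3 was again above day 4 in both. Its log2 changes were -2.67 (SE 0.42, adjusted p = 4.29e-05) in the main pair and 2.27 (adjusted p = 0.0015) in the crossed pair, both by limma. On day 2 NRRL3_06294 was at 158 ± 18.2 TPM in the TLL strain against 26.4 ± 2.70 TPM in WT. The day 2 libraries of both strains did not overlap, at 139, 175 and 159 TPM against 25.9, 29.3 and 24.0. The log2 change of 2.53 (SE 0.87, adjusted p = 0.0697, limma) still did not pass the test, nor did that of 0.82 for NRRL3_01743 (adjusted p = 0.22). This SE comes from all 24 libraries, day 1 included. On day 1 NRRL3_06294 was at 91.7, 5.23 and 5.77 TPM in WT and at 2.72, 7.97 and 74.5 TPM in the TLL strain.

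NRRL3_07337 and NRRL3_05788 were higher on day 4 than on day 3 in both strains. NRRL3_07337 was at 17.8, 11.8 and 12.9 TPM in TLL day 4 against 4.05, 4.43 and 2.71 in WT day 3, a log2 change of 1.68 (SE 0.19, adjusted p = 6.45e-07, limma). It stood at 38.6, 44.0 and 35.6 TPM in WT day 4 against 6.35, 8.19 and 6.82 in TLL day 3, a log2 change of -2.32 (adjusted p = 2.23e-07, limma). NRRL3_05788 was at 38.4, 40.6 and 39.2 TPM in TLL day 4 against 12.5, 16.2 and 11.7 in WT day 3, a log2 change of 1.49 (SE 0.23, adjusted p = 3.85e-05, limma). In WT day 4 it was at 26.2, 23.0 and 20.1 TPM and in TLL day 3 at 7.30, 7.42 and 7.32 TPM, a log2 change of -1.52 (adjusted p = 0.00028, limma).

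The largest decreases of the main pair had little counterpart in the crossed pair. There the log2 changes were -0.78 for NRRL3_04321 (adjusted p = 0.219, limma), -0.41 for NRRL3_02940 (adjusted p = 0.391) and 0.51 for NRRL3_01181 (adjusted p = 0.717). The largest increases were called in both, with log2 changes in the crossed pair of 2.56 for NRRL3_06871 (adjusted p = 0.00183, limma) and 2.42 for NRRL3_11759 (adjusted p = 0.000293). On day 2, however, NRRL3_06871 was lower in the TLL strain, at 31.4, 33.4 and 28.2 TPM against 256, 200 and 92.4 in WT. Its log2 change there was -2.40 (adjusted p = 0.00488, limma). For NRRL3_11759 the day 2 change was -0.54 (adjusted p = 0.363, limma).

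Day-matched comparisons of the strains on days 1 and 2 also share no library with the main pair. On day 1 the strains differed at 699 genes (7.31%), 168 higher in the TLL strain (1.76%) and 531 lower (5.56%). On day 2 they differed at 928 genes (9.71%), 786 higher (8.22%) and 142 lower (1.49%). These splits moved with the scaling: by the median of ratios 346 genes were higher and 596 lower on day 1, and 316 higher and 233 lower on day 2. Quantile normalization gave 368 higher and 457 lower on day 1, and 362 higher and 283 lower on day 2. Of the day 1 genes 249 were called with the same sign in the main pair and 132 with the opposite sign, together 54.5% of the day 1 list and 8.30% of the 4593. Most of the former were lower in the TLL strain in both, 171 genes, which is 10.6% of the 1611. Of the day 2 genes 350 had the same sign and 176 the opposite, together 56.7% of that list and 11.5% of the 4593. Most of the former were higher in the TLL strain in both, 314 genes or 10.5% of the 2982. By the median of ratios the day 2 counts were 178 and 137. Over all tested genes 48.1% were called in the main pair, near the 54.5% and 56.7% of the day 1 and day 2 lists.

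The day 1 and day 2 counts moved strongly with single libraries. On day 1, genes of the same and opposite sign numbered 459 and 328 without WT replicate 1, 84 and 54 without WT replicate 2, and 399 and 150 without WT replicate 3. They numbered 147 and 64 without TLL replicate 1, 73 and 46 without TLL replicate 2, and 597 and 669 without TLL replicate 3. Fitted by limma on its own 6 libraries, day 1 had 0 calls and 700 genes whose unadjusted p was under 0.05, and no other tool was run. On day 2 the counts were 224 and 116 without WT replicate 2, 100 and 70 without WT replicate 3, 559 and 180 without TLL replicate 1, 123 and 77 without TLL replicate 2, and 140 and 102 without TLL replicate 3.

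Called with one sign in the main pair, the crossed pair and on days 1 and 2 were 3 genes, picked out after their values were seen. NRRL3_06087 was lower in the TLL strain each time, with log2 changes of -1.75 in the main pair (adjusted p = 2.07e-06, limma), -1.50 in the crossed pair, -1.83 on day 1 and -0.91 on day 2. It was at 33.8, 37.0 and 25.2 TPM in TLL day 4 against 108, 111 and 107 in WT day 3. NRRL3_04846 was higher each time, at 12.2, 15.1 and 20.3 TPM in TLL day 4 against 8.15, 5.83 and 6.62 in WT day 3, a log2 change of 1.08 (adjusted p = 0.00288, limma). NRRL3_10645 was also higher each time, at low levels of 3.35, 3.16 and 3.28 TPM in TLL day 4 against 1.52, 1.51 and 1.36 in WT day 3, a log2 change of 0.79 (adjusted p = 0.000281, limma). All 4 comparisons come from one fit with a shared estimate of spread. Fitted on the day 1 libraries alone, the adjusted p of day 1 by limma was 0.444 for NRRL3_06087, 0.561 for NRRL3_04846 and 0.584 for NRRL3_10645. Leaving out single libraries also ended calls outside the main pair. The day 2 call of NRRL3_06087 was lost without WT day 2 replicate 3 (adjusted p = 0.0747, limma) or TLL day 2 replicate 2 (adjusted p = 0.0556). For NRRL3_04846 the day 1 call was lost without WT day 1 replicate 1 or 2 or TLL day 1 replicate 1 or 2 (adjusted p = 0.056 to 0.178, limma), and the day 2 call without replicate 3 of either strain (adjusted p = 0.102 and 0.0931). For NRRL3_10645 the day 1 call was lost without WT day 1 replicate 2 (adjusted p = 0.0533, limma), and the crossed call without WT day 4 replicate 2 (adjusted p = 0.0628) or TLL day 3 replicate 3 (adjusted p = 0.0521).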

How the data were processed

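RNA-seq of 24 libraries (8 groups of 3, by strain and day in the labels) was analysed from 1 table of TPM values that the authors deposited. HISAT2, StringTie and Cufflinks are named without version or role in the submitters' processing notes, but the title of the deposited file points to RSEM; the program behind the TPM values is therefore uncertain. Build and annotation are not stated in the sources used here. No read counts were used, so no count model was fitted and no counting interval can be given.

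Genes that reached 1 TPM in 3 or more libraries were tested on log2(TPM + 1), which understates the change of low genes, with limma 3.58.1 in R 4.3.3 (one mean per group, all 24 libraries, 16 residual degrees of freedom, trended empirical Bayes variance, Benjamini-Hochberg adjustment over 9558 genes). The fit was tested on simulated data in which a gene had the same spread in all groups. The larger spread of the day 1 groups was therefore not covered by that test. Figures used Python 3.11.15 with matplotlib 3.10.9. The 4 comparisons set beside one another share no library.

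Named genes are the 2 called genes with the largest change each way, given a mean of 10 TPM or more in the higher group and libraries that do not overlap (at least 1 library of the lower group above 0), among all tested genes, among genes of at least 1000 TPM, and among genes called in both crossed pairs with the same or with opposite signs (ranked there by the smaller of both changes). The groups, rules and lists were chosen with earlier results of these data known. Pathway lists could not be used, since no identifier was annotated; no sequence is printed for the same reason. Alternatives were another pseudocount, filter or scaling, library weights, a replicate block, subsets of libraries and leaving out each library.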

Additional observations from a re-analysis of the deposited data

Results flagged for a closer look

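For 10 named genes the difference between strains in TLL day 4 against WT day 3 departed from that in TLL day 3 against WT day 4, by limma's test of the difference between both (log2 scale, first pair minus crossed pair). Of these, 4 were chosen for opposite signs, so their departure follows from the choice. Their differences were 3.99 for NRRL3_07337 (adjusted p = 1.79e-09, limma), 3.01 for NRRL3_05788 (adjusted p = 1.54e-06), -8.71 for NRRL3_06294 (adjusted p = 2.62e-05) and -4.94 for NRRL3_01743 (adjusted p = 5.05e-06).

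The other 6 were chosen for the size of their change in the first pair, which raises that difference. NRRL3_04321 differed by -8.26 (adjusted p = 2.06e-09, limma), NRRL3_02940 by -7.69 (adjusted p = 6.01e-11) and NRRL3_01181 by -3.31 (adjusted p = 0.0154). Among the increases, NRRL3_00308 differed by 5.21 (adjusted p = 0.00421, limma), NRRL3_06871 by 3.93 (adjusted p = 0.000257) and NRRL3_11759 by 3.89 (adjusted p = 1.77e-05).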

How the results depend on the processing

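For the change of the 13 named genes between TLL day 4 and WT day 3, 0 of 234 values under the alternatives changed sign or lost the call. These genes were chosen for large called changes in this pair, which favours that outcome, so it says little about other genes. In the crossed pair 0 of 180 values of the 10 named genes called there changed sign and 12 lost the call, all of NRRL3_00308 or NRRL3_06294. Of 177 counts under other settings 36 moved by over 1.5 times, as did 32 of 120 with one library left out; the cause was not tested. Replicate numbers did not pair the libraries (correlations of same-numbered deviations of 0.06, -0.06 and 0.02 in the main pair), and only replicate 3 of 3 correlated best with its own number. On day 1 the same-numbered correlations between strains were -0.64, 0.44 and -0.61. The highest with another number were 0.58, 0.53 and 0.70, so day 1 libraries of different numbers were alike across strains. With the number as a replicate block 4612 genes were called against 4593. Leaving out each library gave 3803 to 3992 calls, 2429 to 2681 higher, 1293 to 1465 lower, 1023 to 1147 and 683 to 740 at least 2-fold, and 19 to 23 and 84 to 89 at least 8-fold. For the crossed pair it gave 551 to 988 calls, 140 to 255 of the same sign and 168 to 313 of opposite sign, for day 1 73 to 597 and 46 to 669, and for day 2 100 to 559 and 70 to 180.

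Library weights raised the calls to 6906 (2523 lower), those of the crossed pair to 4120, the shared ones to 1668 of the same and 1350 of opposite sign, those shared with day 1 to 1956 and 1582 and with day 2 to 2571 and 1376, and the interaction to 6009. With a pseudocount of 5, 618 genes were at least 2-fold higher, 463 lower, 12 at least 8-fold higher and 50 lower; with 0.1, 59 and 178 were at least 8-fold higher and lower. By the median of ratios 699 were at least 2-fold higher, and the same-sign count with day 2 was 178 (221 by quantiles). The main pair had 6159 calls when only the libraries compared were fitted and 5874 without day 1. It had 5905 without WT day 1 replicate 1 and TLL day 1 replicate 3. Fitting only the libraries compared gave 1947 crossed calls, 659 shared with the same and 620 with opposite sign, and 0 and 0 shared with day 1. Without day 1 these were 2530, 807 and 767, and 1151 and 689 with day 2. Without WT day 1 replicate 1 and TLL day 1 replicate 3, chosen after seeing the data, they were 2547, 809 and 774, 785 and 860 with day 1, and 1142 and 691 with day 2. Depth is unknown, so differences of low genes cannot be weighed by reads.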
